A study of Mus musculus with 12 samples.

Results

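The T cell receptor and coreceptor genes were followed through the white fat of chow-fed mice. The 10 genes were Cd3d, Cd3e, Cd3g, Cd247, Lck, Lat, Tcf7, Cd4, Cd8a and Cd8b1, taken by exact gene symbol from the 24890 features that each library lists. All 10 were found, each at 1 locus. Values were in FPKM (fragments scaled to transcript length and to the mapped total of the library), which allows levels to be compared between genes.

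The 12 RNA sequencing libraries came from male C57BL/6J mice, 18 weeks old and fed a normal chow diet, with no other treatment or genetic change named. Epididymal adipose tissue (EAT, a visceral depot) and inguinal adipose tissue (IAT, a subcutaneous depot) were each digested with collagenase I, which frees the fat-laden adipocytes from the stromal vascular cells (SVCs), a mixture of blood, vessel, stromal and immune cells. Each depot thus gave an adipocyte group and an SVC group, 4 groups in all with 3 libraries each. Whether a library held 1 mouse or several is not in the labels, so a p-value here reflects library-to-library spread, which may be technical. The labels also do not say whether the inguinal lymph node, which lies inside the inguinal fat pad, was removed. No T cells were sorted, so the values describe T cell transcripts in mixed fractions.

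A T cell recognises antigen with a receptor whose antigen-binding chains cannot signal by themselves. They are held in the membrane by the CD3 subunits delta, epsilon and gamma (Cd3d, Cd3e, Cd3g) and by the zeta chain (Cd247), which carry the activation motifs that the kinase Lck phosphorylates. Lck is bound to the tail of a coreceptor, CD4 on helper T cells or the CD8 alpha and beta chains (Cd8a, Cd8b1) on cytotoxic T cells, and the signal passes on to the membrane adaptor Lat. Tcf7 encodes TCF1, a transcription factor of T cell development that stays high in naive and memory-like T cells. In adipose tissue, resident T cells are known to differ between depots and to shift with diet. Cd247 and Lck are also transcribed in natural killer (NK) cells, and Cd4 in some myeloid cells.

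Of the 10 genes, 5 sit in tight groups in the genome (build GRCm38). On chromosome 9, Cd3g (44969572 to 44980431) ends 1354 bases from the start of Cd3d (44981786 to 44987052), and Cd3e (44998743 to 45009590) begins 11690 bases beyond Cd3d. On chromosome 6, Cd8b1 (71322812 to 71337451) and Cd8a (71373427 to 71379171) are separated by 35975 bases, while Cd4 (124864693 to 124888209) lies far away on the same chromosome. The remaining genes are on chromosome 1 (Cd247, 165788681 to 165871153), 4 (Lck, 129548344 to 129573641), 7 (Lat, 126363828 to 126369534) and 11 (Tcf7, 52252604 to 52282571).

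RefSeq (GRCm38.p6) promoter windows, the 250 bases before an annotated start, were matched by symbol for 8 of the 10 genes, giving 10 windows because Lck and Tcf7 each have a pair of annotated starts. Cd4 and Cd8b1 are named only. The windows of the 3 CD3 genes and of Cd8a are printed because the CD3 genes are neighbours, and because Cd8a differed more between depots (by ratio of means, below) than they did. Each is written 5′ to 3′ on the strand of the gene, and capitals mark AGGAAG (an ETS family core) or TGTGGT (a RUNX core), on either strand, so that AGGAAG may read CTTCCT.
Cd3d, chr9:44981536-44981785, plus strand: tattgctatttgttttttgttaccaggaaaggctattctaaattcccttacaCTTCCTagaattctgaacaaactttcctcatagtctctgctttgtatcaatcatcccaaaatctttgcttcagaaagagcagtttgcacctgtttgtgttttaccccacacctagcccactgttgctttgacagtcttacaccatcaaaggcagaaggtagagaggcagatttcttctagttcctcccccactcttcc
Cd3g, chr9:44980432-44980681, minus strand: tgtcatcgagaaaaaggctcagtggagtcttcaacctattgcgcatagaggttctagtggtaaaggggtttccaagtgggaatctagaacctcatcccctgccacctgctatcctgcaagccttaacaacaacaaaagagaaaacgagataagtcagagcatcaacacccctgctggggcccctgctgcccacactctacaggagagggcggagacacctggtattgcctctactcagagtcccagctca
Cd3e, chr9:45009612-45009861, minus strand: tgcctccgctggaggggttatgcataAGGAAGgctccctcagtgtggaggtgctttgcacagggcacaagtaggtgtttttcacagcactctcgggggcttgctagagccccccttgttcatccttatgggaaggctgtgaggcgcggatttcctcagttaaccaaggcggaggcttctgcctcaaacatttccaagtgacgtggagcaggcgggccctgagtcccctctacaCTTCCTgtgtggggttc
Cd8a, chr6:71373177-71373426, plus strand: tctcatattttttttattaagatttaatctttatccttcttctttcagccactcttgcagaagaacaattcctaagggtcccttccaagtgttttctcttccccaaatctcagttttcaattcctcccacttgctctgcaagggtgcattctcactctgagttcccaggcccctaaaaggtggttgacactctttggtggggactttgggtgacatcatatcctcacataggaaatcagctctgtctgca

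Cd3d and Cd3g are transcribed away from each other, and their windows both lie in the stretch between them. The ETS letters AGGAAG occurred in the windows of Cd3d (1 match), Cd3e (2 matches), Cd247, Lck and Lat, which is 5 of 8 genes and 6 of 10 windows, against 29.5% of 32851 RefSeq windows of the same length. The RUNX letters TGTGGT occurred in 1 of 10 windows, at the upstream start of Lck, against 14% of all windows. The letters CTTTGA and CTTTGT, both cores of TCF1 sites, occurred in 1 window (Cd3d) and 2 windows (Cd3d and Lck), against 13.8% and 16.5%. The GATA letters AGATAA occurred in 1 window (Cd3g), against 9.99%. Of these letter strings, the windows of Cd8a and Tcf7 held none. All were searched on both strands, the capitalised matches do not overlap, and a match describes letters, not binding.

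The whole series gave 14.1 to 24.6 M estimated gene fragments a library, and 10726 to 12425 features reached 1 FPKM. The fractions followed their labels: 9 adipocyte markers (Adipoq, Plin1 and others) summed to 2.58e+04 to 3.45e+04 FPKM in adipocytes and 116 to 296 FPKM in SVCs. All comparisons of single genes used limma on log2(FPKM + 1) over the 13175 features that reached 1 FPKM in 3 or more libraries, and a gene was called at a Benjamini-Hochberg adjusted p under 0.05. All 10 genes passed that filter, but by different routes. Cd247 was above 1 FPKM in all 12 libraries, 7 genes passed through the 6 SVC libraries, and Cd8a and Cd8b1 passed only through the 3 IAT SVC libraries. Adding 1 to low values compresses their differences, so log2 differences of genes near or below 1 FPKM understate the change.

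Each of the 10 genes had the same order of group means: IAT SVCs, then EAT SVCs, then IAT adipocytes, then EAT adipocytes. In IAT SVCs they reached 63.5 FPKM (Lat). In adipocytes all genes but Cd247 were below 1 FPKM, and in EAT SVCs Cd8a and Cd8b1 were too. Counting error at those levels was large. From the deposited confidence bounds, a gene other than Cd247 rested on about 0 to 13 fragments in an EAT adipocyte library and 3 to 37 in an IAT adipocyte library, against 258 to 2454 for any of the 10 genes in an IAT SVC library. In EAT SVCs the range was 14 to 489 fragments, with Cd8a at 35, 25 and 21 and Cd8b1 at 34, 33 and 14.

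**Figure D1:**
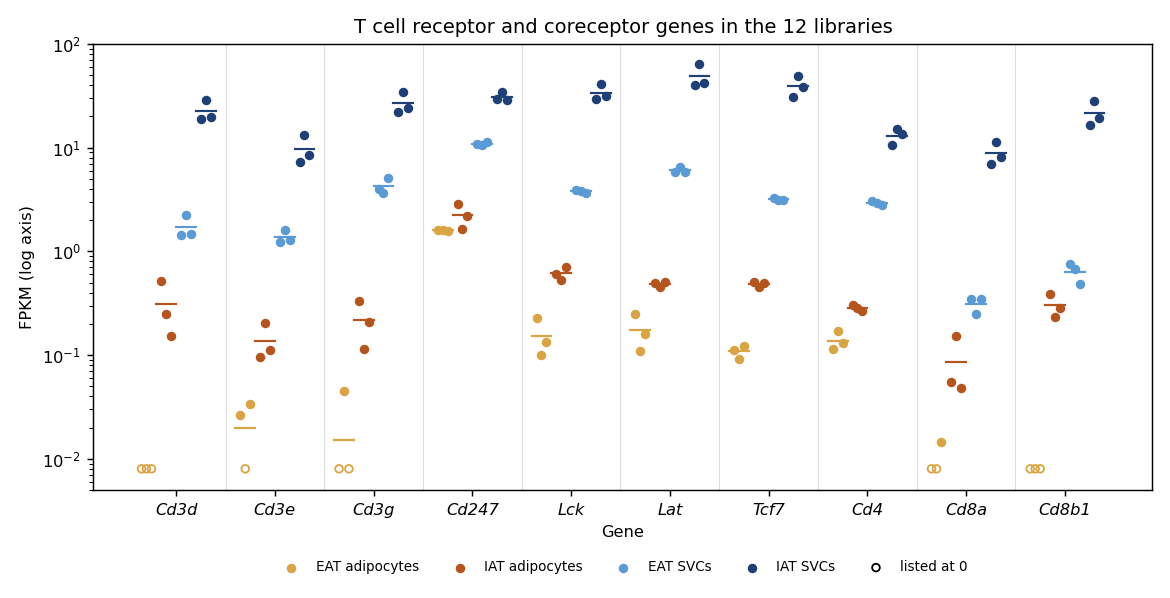
FPKM of the 10 genes (log axis) in each of the 12 libraries, by group. Points are libraries, horizontal lines are group means, and open circles at the bottom are libraries listed at 0. In every gene the 3 IAT SVC libraries lie above the 3 EAT SVC libraries, from 6.92 FPKM (Cd8a) to 63.5 FPKM (Lat) in IAT SVCs.

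The comparison of SVCs between depots asks where in the body the non-adipocyte cells carry more T cell transcript. All 10 genes were higher in IAT than in EAT SVCs, against 14.0% of all features called higher in IAT SVCs. In all 10 the groups did not overlap, against 20.1% of all features. Cd8a and Cd8b1 passed the filter only through IAT SVCs, the group where they are high, so their tests here describe them and do not support the count. The median log2 difference of all 10 genes was 2.82, against -0.06 over all features tested. Fewer T cells and less RNA per T cell cannot be told apart in bulk libraries.

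The CD3 subunits were all higher in IAT SVCs. Cd3d, the delta subunit, was at 1.42, 2.23 and 1.48 FPKM in the EAT SVC libraries and at 18.9, 29.1 and 19.9 FPKM in the IAT SVC libraries. Every IAT library was far above every EAT library, and the means stood in a ratio of 13.2 (log2 difference 3.11 ± 0.16 SE, limma adjusted p = 7.5e-09). Cd3e, the epsilon subunit, was at 1.22, 1.62 and 1.29 FPKM in EAT and at 7.28, 13.2 and 8.52 FPKM in IAT. The ratio of its means was 7.02 (log2 difference 2.13 ± 0.15, limma adjusted p = 1.8e-07), again with no overlap. Cd3g, the gamma subunit, was at 3.99, 3.69 and 5.15 FPKM in EAT and at 22, 34.8 and 24.1 FPKM in IAT. Its means stood in a ratio of 6.3 (log2 difference 2.39 ± 0.15, limma adjusted p = 5.1e-08).

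The zeta chain gene had the smallest depot difference of the 10. Cd247 was at 11, 10.5 and 11.2 FPKM in EAT SVCs and at 29.2, 34.7 and 28.6 FPKM in IAT SVCs, a ratio of means of 2.83 (log2 difference 1.41 ± 0.12, limma adjusted p = 9.1e-07). It was the most abundant of the 10 genes in EAT SVCs and in both adipocyte groups, but not in IAT SVCs, where Lck, Lat and Tcf7 had higher means. Its locus overlaps Pou2f1 on the opposite strand in GENCODE vM21. Pou2f1 averaged 0.711 to 1.52 FPKM over the groups, and whether counting used strand was not given, so the level of Cd247 is uncertain by that overlap.

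The signalling genes Lck and Lat and the transcription factor Tcf7 had larger differences. Lck was at 3.89, 3.84 and 3.62 FPKM in EAT SVCs and at 29.2, 41.4 and 31.5 FPKM in IAT SVCs (log2 difference 2.86 ± 0.11, limma adjusted p = 5.8e-10). Lat was at 5.79, 6.46 and 5.86 FPKM in EAT SVCs and at 40.2, 63.5 and 42.2 FPKM in IAT SVCs (log2 difference 2.79 ± 0.14, limma adjusted p = 5.2e-09). The kinase and the adaptor thus had near-equal ratios of means, 9 for Lck and 8.06 for Lat. Tcf7 was at 3.29, 3.10 and 3.12 FPKM in EAT SVCs and at 30.5, 49.2 and 38.8 FPKM in IAT SVCs. Its means stood in a ratio of 12.5 (log2 difference 3.25 ± 0.13, limma adjusted p = 6.1e-10), and no library of either group overlapped the other group.

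The coreceptors differed from each other. Cd4, the helper coreceptor, was at 3.07, 2.90 and 2.80 FPKM in EAT SVCs and at 10.5, 15.1 and 13.5 FPKM in IAT SVCs, a ratio of means of 4.45 (log2 difference 1.82 ± 0.10, limma adjusted p = 1.5e-08). Cd8a, the alpha chain of the cytotoxic coreceptor, was at 0.345, 0.249 and 0.349 FPKM in EAT and at 6.92, 11.4 and 8.13 FPKM in IAT. The ratio of means was 28.1 (log2 difference 2.88 ± 0.12, limma adjusted p = 1.6e-09). Cd8b1, the beta chain, was at 0.76, 0.671 and 0.482 FPKM in EAT and at 16.7, 28.4 and 19.4 FPKM in IAT. Its ratio of means, 33.7, was the highest of the 10 genes (log2 difference 3.75 ± 0.14, limma adjusted p = 6.0e-10). The EAT means of both CD8 chains, on which these ratios rest, came from 14 to 35 fragments a library, and both genes entered the test through IAT SVCs only.

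IAT SVC replicate 2 was the highest IAT SVC library for all 10 genes, at 1.2 (Cd247) to 1.67 (Cd3e) times the mean of replicates 1 and 3. Replicate 1 was the lowest for 9 of the 10. Without replicate 2 all 10 genes were still called higher, with log2 differences of 1.33 to 3.54 and limma adjusted p-values of 1.3e-10 to 8.0e-06. The EAT SVC libraries had no such order, each of them being the highest for 3 or 4 genes.

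**Figure D2:**
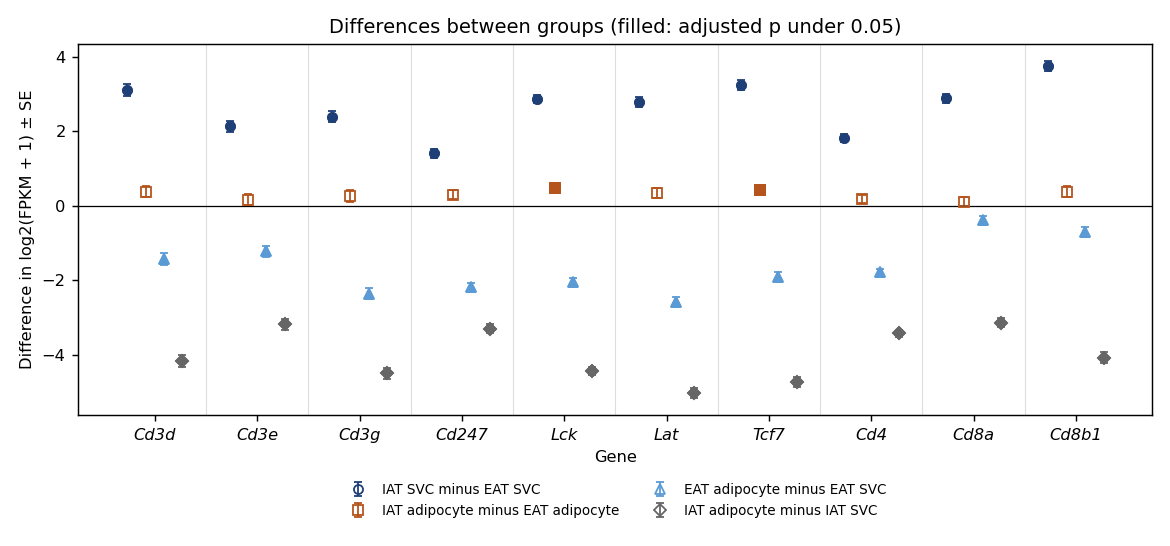
Differences in log2(FPKM + 1) between groups for the 10 genes, with standard errors from limma, in the 4 comparisons. Filled symbols are called differences. The depot differences in SVCs (circles, 1.41 to 3.75) all lie above those in adipocytes (squares), and the fraction differences (triangles and diamonds) lie below 0.

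The balance of helper against cytotoxic coreceptor transcripts was read within each library, where a factor common to both genes cancels. In EAT SVCs the ratio of Cd4 to Cd8a FPKM was 8.92, 11.6 and 8.03, and in IAT SVCs it was 1.52, 1.32 and 1.65. For Cd4 to Cd8b1 the ratio was 4.04, 4.32 and 5.81 in EAT SVCs and 0.63, 0.53 and 0.695 in IAT SVCs. Cd4 exceeded both CD8 chains in EAT SVCs, while in IAT SVCs it exceeded Cd8a but not Cd8b1.

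On the log2 scale, with 0.1 FPKM added to each gene, the Cd4 to Cd8a ratio averaged 2.88 ± 0.21 (SD, n = 3) in EAT SVCs and 0.57 ± 0.16 in IAT SVCs, a difference of -2.31 (two-sided exact permutation p = 0.1, 0.133 adjusted over 8 comparisons). The Cd4 to Cd8b1 ratio averaged 2.05 ± 0.23 and -0.70 ± 0.20, a difference of -2.75 (exact permutation p = 0.1, adjusted 0.133). The groups did not overlap in either ratio, and 0.1 is the smallest p that 3 libraries against 3 can give. Neither difference can therefore pass 0.05 by that test. The Cd8a difference was -1.05 with 1 FPKM added and -2.66 with none, since EAT Cd8a lies below 1 FPKM. The ratio of Cd8b1 to Cd8a, by contrast, was 2.21, 2.69 and 1.38 in EAT SVCs and 2.42, 2.49 and 2.38 in IAT SVCs, with overlapping values.

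**Figure D3:**
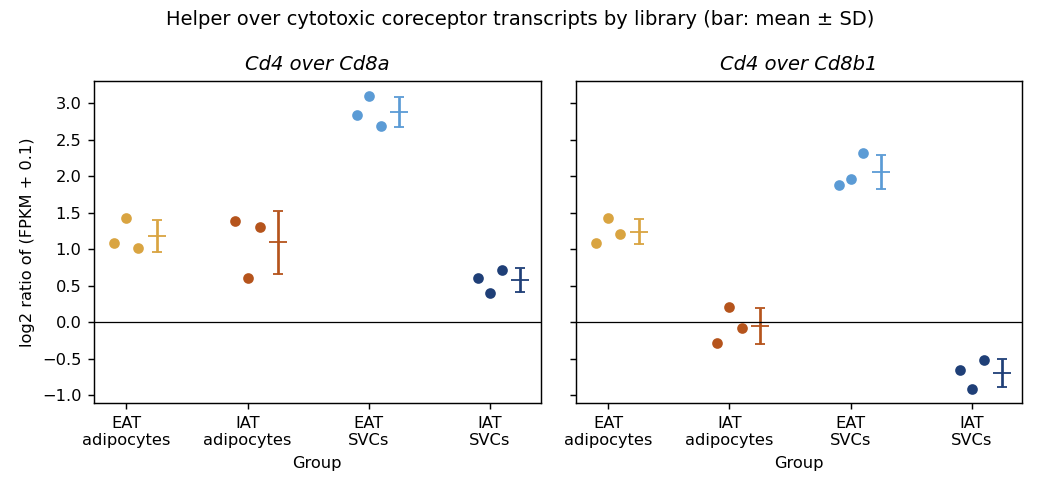
Ratio of Cd4 to Cd8a (left) and of Cd4 to Cd8b1 (right) on a log2 scale, with 0.1 FPKM added to each gene, by library and group. Points are libraries and bars are means ± SD. EAT SVCs are highest in both panels (2.88 and 2.05), and IAT SVCs lie lowest (0.57 and -0.70).

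Each gene was also set against the mean log2 FPKM of Cd3d, Cd3e and Cd3g in its own library. The result describes SVC levels per unit of CD3 transcript. The CD3 mean cancels between Cd4 and a CD8 gene, so their contrast restates the ratios above and is not separate evidence. Lck stood at 0.83 ± 0.18 (SD, n = 3) log2 units above the CD3 mean in EAT SVCs and at 0.93 ± 0.11 in IAT SVCs, and Lat at 1.5 ± 0.09 and 1.43 ± 0.04. Both overlapped between depots. Tcf7 moved up, from 0.57 ± 0.20 in EAT to 1.14 ± 0.13 in IAT. Cd4 moved down, from 0.46 ± 0.21 to -0.45 ± 0.20, whereas Cd8a moved up from -2.78 ± 0.42 to -1.03 ± 0.05 and Cd8b1 from -1.77 ± 0.42 to 0.25 ± 0.04. Cd247 had the largest downward shift, from 2.36 ± 0.19 to 0.80 ± 0.23. For these 5 genes the depots did not overlap, and the shifts between means ran from -1.56 (Cd247) to 2.01 (Cd8b1).

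**Figure D4:**
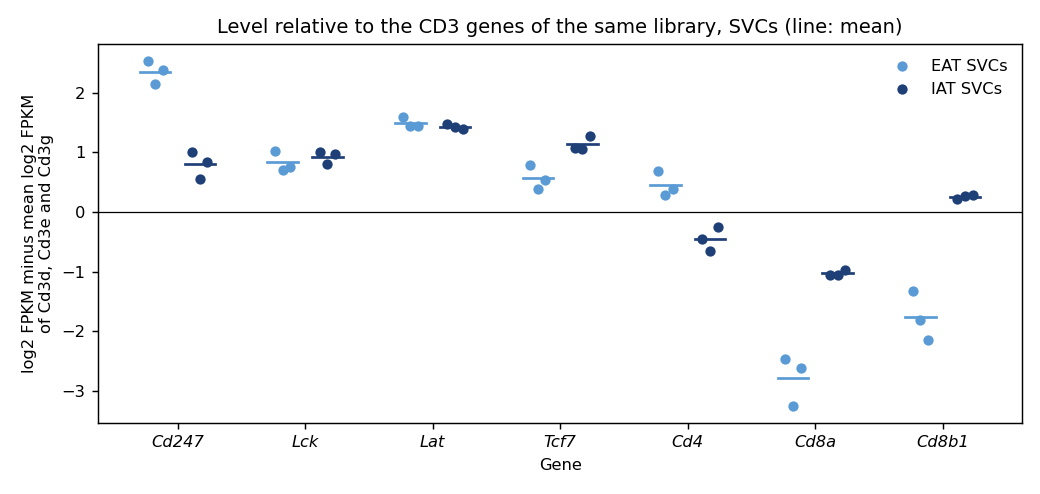
Log2 FPKM of 7 genes minus the mean log2 FPKM of Cd3d, Cd3e and Cd3g in the same library, in EAT and IAT SVCs. Points are libraries and lines are group means. Lck and Lat overlap between depots, Cd247 and Cd4 are lower in IAT SVCs, and Tcf7, Cd8a and Cd8b1 are higher.

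In adipocytes the same depot comparison gave small differences at very low levels. Of the 10 genes 2 were called higher in IAT adipocytes, against 10.3% of all features. Lck was listed at 0.227, 0.101 and 0.134 FPKM in EAT adipocytes, below the 0.601, 0.53 and 0.706 FPKM of IAT adipocytes (log2 difference 0.48 ± 0.11, limma adjusted p = 0.00438). Tcf7 was listed at 0.112, 0.0925 and 0.123 FPKM in EAT adipocytes, below the 0.507, 0.452 and 0.497 FPKM of IAT adipocytes (log2 difference 0.42 ± 0.13, limma adjusted p = 0.0197). For the other 8 genes the limma adjusted p lay between 0.0557 (Cd8b1) and 0.521 (Cd8a). Yet no gene overlapped between the depots, with all 10 higher in IAT, against 13.5% of all features that were higher without overlap.

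The CD3 and CD8 genes were barely present in EAT adipocytes. Cd3d and Cd8b1 were listed at 0 in all 3 EAT adipocyte libraries, Cd8a in 2 of 3, Cd3g in 2 of 3 and Cd3e in 1 of 3. In IAT adipocytes each was listed above 0 in every library: Cd3d at 0.523, 0.251 and 0.154 FPKM, and Cd8b1 at 0.39, 0.233 and 0.286 FPKM. Cd4 was at 0.113, 0.17 and 0.131 FPKM in EAT adipocytes against 0.303, 0.286 and 0.266 FPKM in IAT adipocytes, and Cd247 at 1.62, 1.62 and 1.57 FPKM against 2.86, 1.64 and 2.21 FPKM, where the nearest libraries of the depots stood at 1.62 and 1.64 FPKM. How many of the 10 genes were called depended on the value added before the logarithm: 7 with 0.5 and all 10 with 0.1. Of the 13175 features tested, 1363 were called higher with 1 added, 1415 with 0.5 and 1506 with 0.1. Without IAT adipocyte replicate 1 or 3 the count among the 10 genes fell to 1 (Lck), with 1016 and 1073 of all features called higher. Without IAT SVC replicate 1 or 2, which only changes the shared spread, it was 5, with 1324 and 1328 of all features.

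The depot difference itself was compared between fractions with limma's interaction term. For all 10 genes it was larger in SVCs than in adipocytes, against 17.8% of all features, by 1.12 (Cd247) to 3.37 (Cd8b1) on the log2 scale, with a median of 2.41 against 0.04 over all features. All genes but Cd247 passed the filter only through SVC libraries, so this count describes the genes and does not support the difference. The larger difference in SVCs holds on the log2(FPKM + 1) scale, and its size depends on the added value. With 0.1 added, the term was 1.18 for Cd3g (limma adjusted p = 0.0314) and 1.72 for Cd3d. On FPKM with nothing added the direction can differ. The adipocyte means of Cd3g were 0.219 FPKM in IAT and 0.0151 FPKM in EAT, a larger ratio than its 6.3 in SVCs, and Cd3d and Cd8b1 have no such ratio because they are listed at 0 in EAT adipocytes.

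The coreceptor ratio in IAT adipocytes rested on few fragments. Cd4 to Cd8a was 5.57, 1.86 and 5.51, and Cd4 to Cd8b1 was 0.778, 1.22 and 0.931. With 0.1 FPKM added, the depot difference in adipocytes was -0.08 for Cd8a (exact permutation p = 0.8, adjusted 0.8) and -1.29 for Cd8b1 (exact permutation p = 0.1, adjusted 0.133). In EAT adipocytes, where the CD8 genes were at or near 0, the ratio mainly reads the added value, which limits the comparisons that use that group.

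The fraction comparison asks how far the levels in adipocyte libraries lie below those in SVC libraries. Where the transcript in the adipocyte libraries came from was not tested. In EAT all 10 genes were lower in adipocytes than in SVCs, against 52.7% of all features called lower, with log2 differences from -2.58 (Lat) to -0.39 (Cd8a), a median of -1.85 against -0.31 over all features, and limma adjusted p-values of 1.1e-09 to 0.0111. In IAT all 10 were lower too, against 53.9% of all features, with differences from -5.03 (Lat) to -3.15 (Cd8a), a median of -4.12 against -0.34, and limma adjusted p-values of 1.2e-12 to 3.9e-10. Since 9 of the 10 genes passed the filter only through SVC libraries, these counts describe the genes and do not support the difference. The fraction comparisons use the same SVC libraries as the depot comparison.

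As a share of the SVC mean, the adipocyte mean was 0 to 14.7% in EAT (median 2.2%) and 0.812 to 7.24% in IAT (median 1.39%). Cd247 was the highest in both depots, at 14.7% and 7.24%. Cd4 came next in both depots, at 4.71% in EAT and 2.19% in IAT. For comparison, the 12 macrophage markers summed to 281 to 351 FPKM in EAT adipocytes and 58.7 to 81.4 FPKM in IAT adipocytes, against 2.28e+03 to 2.44e+03 and 1.52e+03 to 1.68e+03 FPKM in SVCs. All 12 were called lower in IAT than in EAT adipocytes, against 27.3% of all features, the opposite direction to the T cell genes. Their part in the values of Cd4 was not tested.

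Other genes of T cell receptor signalling were read from a list of 30, of which 28 were tested. In IAT against EAT SVCs 18 were called higher and 3 lower, with a median log2 difference of 0.74. Over all features 14.0% were called higher and 26.2% lower, which is also the background for the lists that follow. The genes with the smallest p-values were Grap2, an adaptor that binds Lat partners (17.6 ± 2.00 against 2.26 ± 0.366 FPKM), the kinases Prkcq (14.9 ± 3.8 against 1.64 ± 0.159) and Txk (6.35 ± 1.04 against 1.05 ± 0.1), the adaptor Skap1 (13.2 ± 2.12 against 2.07 ± 0.0744) and Themis, needed for thymocyte selection (3.69 ± 0.635 against 0.18 ± 0.0554). The 3 lower genes, named because there were so few, were Lcp2 (14.7 against 21.5 FPKM), Nfatc2 (5.18 against 8.84) and Cbl (1.49 ± 0.725 against 2.89 ± 0.686). Cbl was called at the threshold (limma adjusted p = 0.0498), and its libraries overlapped between depots. The part of cells other than T cells in the genes of this list, higher or lower, was not tested. In adipocytes 0 of the 28 were called higher and 6 lower in IAT, against 10.3% and 27.3% of all features.

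Costimulatory and adhesion receptors of T cells followed the same direction, with 17 of 21 called higher and 2 lower in IAT SVCs (median 0.97). Cd6 was at 10.4 ± 2.68 against 1.09 ± 0.172 FPKM, Cd96 at 6.14 ± 1.30 against 0.529 ± 0.15, and Cd40lg, the helper signal to B cells, at 9.09 ± 2.01 against 1.45 ± 0.187. An exception was the inhibitory receptor Pdcd1 (PD-1), at 0.453 ± 0.0723 against 1.91 ± 0.257 FPKM (log2 difference -1 ± 0.07, limma adjusted p = 1.1e-07). The other was Cd226, at 3.65 against 6.32 FPKM. Thus PD-1 transcript was lower in the depot whose SVCs had more CD3 transcript.

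Of 13 T cell transcription factors 10 were called higher and 3 lower in IAT SVCs (median 0.94). Satb1, a chromatin organiser of thymocytes, was at 32 ± 4.64 against 2.67 ± 0.166 FPKM, Lef1, the relative of Tcf7, at 10.2 ± 2.87 against 0.558 ± 0.0865, and Bcl11b, a T lineage commitment factor, at 4.96 ± 1.08 against 0.562 ± 0.0911. Gata3, Id3 and Runx1 were the 3 lower. The part of other cells in the factors of this list, higher or lower, was not tested either.

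Genes of naive and recirculating T cells were also higher, 9 of 10 with 1 lower (Igfbp4) and a median of 1.49. Dapl1 was at 13.4 ± 5.17 against 0.228 ± 0.0445 FPKM and Ccr7, a lymph node homing receptor, at 95.5 ± 21.0 against 17.6 ± 1.29. This list shares Lef1 and Satb1 with the transcription factors. Tissue memory genes were split, with 3 of 9 higher, 3 lower and a median of -0.24. Cd69 (69.9 ± 12.1 against 7.4 ± 0.487 FPKM) and Itgae (2.54 ± 0.509 against 0.324 ± 0.0528) were higher in IAT, and Cd44 (20.1 ± 1.77 against 41.6 ± 4.31) was lower.

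Lineage genes were set beside the coreceptors. Of 13 tested cytotoxic lineage genes 11 were called higher and 1 lower in IAT SVCs (median 0.66). Some of them are also in the NK cell list below, and Klrg1 is also in the group 2 innate lymphoid list. Other lists share genes as well: Icos is in the costimulatory and helper lists, and Ctla4 in the costimulatory and regulatory lists. Gata3 is both among the T cell transcription factors and in the group 2 innate lymphoid list. The counts of these lists are therefore not independent. Nkg7, of cytotoxic granules, was at 27.3 ± 4.02 against 7.44 ± 0.720 FPKM, Ifng at 9.96 ± 1.2 against 2.47 ± 0.447, and Ccl5 at 155 ± 16.2 against 60.2 ± 5.62, while Klrg1 was lower, at 0.849 ± 0.170 against 2.6 ± 0.129. Of 10 helper lineage genes 5 were higher and 5 lower (median 0.04). The higher ones included Il21r (31.2 ± 3.61 against 5.82 ± 0.248 FPKM) and Icos (7.55 ± 1.26 against 3.1 ± 0.413), and the lower ones Maf (18.4 ± 2.05 against 35.9 ± 1.10) and Zbtb7b, the factor that fixes the CD4 lineage (8.99 ± 0.193 against 12 ± 1.63), which was higher still in adipocytes (25.8 ± 1.59 and 28.4 ± 4.83). Among the regulatory T cell genes 2 of 6 were higher (Ctla4, Izumo1r) and 1 lower (Il2ra). Foxp3, their defining factor, was not tested because it did not reach the filter, at 0.771 ± 0.198 in IAT SVCs against 0.566 ± 0.0823 FPKM in EAT SVCs. The receptor's own antigen-binding chains were not analysed here.

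Markers of other lymphocytes moved with the T cell genes. In IAT against EAT SVCs 12 of 13 B cell markers were higher and 0 lower, their sum being 225 to 342 FPKM against 64.6 to 69.6 FPKM. IAT SVC replicate 2 was again the highest, and the part of other lymphocytes in the T cell values was not tested. All 6 tested NK cell markers of 11 listed were higher, with sums over the 11 of 28.2 to 31.5 against 14.7 to 21.6 FPKM, a smaller ratio than that of the 10 T cell genes (212 to 321 against 34.8 to 35.4 FPKM). Unlike the B cell and NK cell lists, that of group 2 innate lymphoid cells ran the other way, with 8 of 8 lower, among them Il5, Il1rl1 and Areg. Its sums were 21.1 to 22.6 against 46.6 to 49.6 FPKM. In SVCs no marker of these lists was at 0 in every library of a group.

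Markers of antigen-presenting cells were lower in IAT SVCs, 10 of 12 for macrophages (0 higher) and 6 of 10 for dendritic cells (1 higher). Lymph node stroma and high endothelium markers were mixed, with 4 of 9 higher, 3 lower and a median of -0.00. Those higher were Cxcl13, the chemokine of B cell follicles (41.9, 42 and 42.4 FPKM in IAT against 4.65, 4.52 and 5.81 FPKM in EAT), Glycam1 of high endothelial venules (6.59, 29.7 and 15.4 FPKM in IAT against 0, 0.0553 and 0 FPKM in EAT), Ccl19 (40.6 ± 4.80 against 21.2 ± 0.784 FPKM) and Cr2, which is also a B cell marker. Those lower were Chst4 (0.211 ± 0.0212 against 7.26 ± 0.217 FPKM), Il7 and Tnfsf11. Glycam1 was highest in IAT SVC replicate 2, as the 10 T cell genes were, whereas Cxcl13 was near-equal across the IAT SVC libraries. Ccl21a, with near-identical gene copies that make its level uncertain, spread widely in both depots (0.237 to 56.8 FPKM in EAT, 4.97 to 24.9 FPKM in IAT) and was not called. The part of lymph node tissue in the depot difference was not tested.

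**Figure D5:**
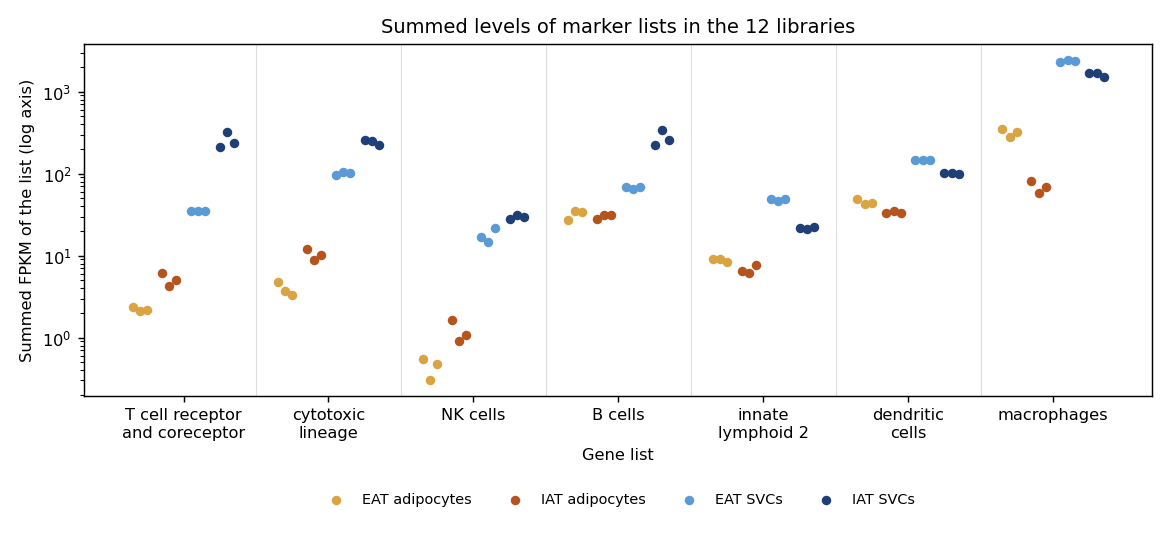
Summed FPKM of the 10 T cell genes and of 6 marker lists (log axis) in each library, by group. Points are libraries. The T cell genes (212 to 321 FPKM in IAT SVCs) and B cell markers (225 to 342 FPKM) are higher in IAT SVCs than in EAT SVCs, while innate lymphoid 2, dendritic and macrophage sums are lower.

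The 8 features whose profiles over the 12 libraries were most like the mean profile of the 10 genes were found by the root mean square difference of centred log2(FPKM + 1). Among them were Grap2 (0.13), Prkcq (0.19), Cxcl13 (0.20), Rasal3 (0.21), Skap1 (0.22) and Cytl1 (0.23), against a median of 1.62 over all features tested. The 10 genes themselves lay between 0.20 (Cd3d) and 0.55 (Cd8a) from their mean. The nearest features therefore included 3 T cell signalling genes (Grap2, Prkcq, Skap1) and a follicular chemokine (Cxcl13).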

How the data were processed

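Values were the authors' deposited gene FPKM, 1 table per library with lower and upper confidence bounds. Per the submitters' processing notes the tools were TopHat and Cufflinks and the build GRCm38 (mm10), while for versions, settings, strand and annotation nothing is given in the sources used here. The 12 libraries were grouped by the labels, 3 per group. Of 24890 features, 9 with a failed estimate were left out. FPKM plus 1 was taken to log2 and fitted with limma 3.58.1 (R 4.3.3; lmFit, eBayes with trend) on 4 group means, two-sided, with Benjamini-Hochberg adjustment over the 13175 features that reached 1 FPKM in 3 or more libraries. Coreceptor ratios, with 0.1 FPKM added, were compared by two-sided exact permutation tests (SciPy 1.17.1). Fragments behind a value were estimated from the deposited bounds, read as Poisson counting limits of 2 standard deviations, and depth limits the adipocyte values most.

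All 10 genes are given in every group. Of each other list up to 5 genes with the smallest p in the SVC depot comparison could be named, with exceptions where few were lower or where a marker bears on a result (Foxp3, Ccl19, Ccl21a, Cd226, Zbtb7b). Some genes that this rule selects are not reported here. The genes and lists were chosen with earlier results of these data known. Same-numbered libraries did not as a rule deviate together (12 pairs, correlations of -0.31 to 0.37, 3 of them over 0.1), so the main fit used no block. Between EAT and IAT adipocytes the correlations were 0.37, -0.08 and 0.35 for replicates 1, 2 and 3, so pairing there is not excluded. Alternatives were another pseudocount, filter, scaling, fit or block, and each library left out. The fit was tested on simulated data.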

Additional observations from a re-analysis of the deposited data

Results flagged for a closer look

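The depot difference (IAT minus EAT) was larger in SVCs than in adipocytes for each of the 10 genes, by limma's interaction term on log2(FPKM + 1), against 17.8% of all features called higher in that term. The difference between the depot differences was 2.73 for Cd3d, 1.97 for Cd3e, 2.13 for Cd3g and 1.12 for Cd247. It was 2.38 for Lck, 2.45 for Lat and 2.83 for Tcf7. Among the coreceptors it was 1.65 for Cd4, 2.77 for Cd8a and 3.37 for Cd8b1. The limma adjusted p-values ran from 1.0e-07 to 0.00025. All genes but Cd247 passed the filter only through SVC libraries, so the count describes the genes and does not support the difference. In adipocytes all genes but Cd247 were below 1 FPKM, a range in which adding 1 compresses differences. With 0.1 added in place of 1 all 10 were still called, with smaller values for some genes (1.18 for Cd3g, limma adjusted p = 0.0314, and 1.72 for Cd3d) and a larger one for Cd8a (3.63). With nothing added the ratio of means of Cd3g was larger in adipocytes than in SVCs, so the direction holds for the added values tried and not for every scale.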

How the results depend on the processing

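Over 22 alternatives all 10 genes were called higher in IAT than in EAT SVCs and lower in IAT adipocytes than in IAT SVCs, and over 21 all 10 kept the interaction. In EAT adipocytes against EAT SVCs the count was 10, or 9 under quantile normalization, where Cd8a was at -0.18 (limma adjusted p = 0.284). No gene's limma difference changed sign.

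In adipocytes between depots 2 of 10 genes were called. The count was 10 with a pseudocount of 0.1, 7 with 0.5, 6 after rescaling to TPM, 5 with median-of-ratios scaling, 7 with quantile normalization and 8 in a fit on the compared groups alone. Over all 13175 features, 1363 were called higher in the main fit. In the settings just named, in that order, 1506, 1415, 1198, 2124, 2015 and 1096 were. Leaving out 1 library gave 1 to 5 of the 10 genes, and 1016 to 1932 of all features called higher. Tcf7 was lost without IAT adipocyte replicate 1 (limma adjusted p = 0.059) or 3 (limma adjusted p = 0.0536). The replicate block left every count of called genes as it was (10, 2, 10, 10 and 10), and 5 of 12 pairs correlated best with their own number.

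The Cd4 to Cd8a depot difference in adipocytes (-0.08) became 0.07 with 1 FPKM added and ran from -0.22 to 0.17 with 1 library left out, rising above 0 without IAT adipocyte replicate 2 or EAT adipocyte replicate 2. The fraction difference of that ratio in IAT (0.53) became -0.28 with 1 FPKM added. In SVCs the depot difference was -1.05 for Cd4 to Cd8a and -1.93 for Cd4 to Cd8b1 with 1 FPKM added, and -2.66 and -2.92 with no pseudocount. The ratio had no value without a pseudocount in comparisons with EAT adipocytes, where CD8 genes are listed at 0, and the interaction had none in a fit on compared groups alone. No alternative was added after seeing the data.

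Scaling moved the split of calls over all features. In SVCs 34.8% of called features were higher in IAT, and 24.2% after rescaling to TPM, 49.2% with median-of-ratios scaling and 50.2% with quantile normalization. The median feature moved from -0.31 to 0.00 in EAT and from -0.34 to -0.00 in IAT between fractions with median-of-ratios scaling. In adipocytes 27.5% became 49.2% with that scaling. Depth limits the adipocyte values, where genes other than Cd247 rest on 0 to 37 fragments a library.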
